A study of Mus musculus with 6 samples.

Results

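Glycine cleavage and folate one-carbon genes were followed in mouse retina after conditional deletion of Ronin, the zinc finger transcription factor encoded by Thap11. The group held 6 genes, picked by name from the 23441 genes of the count table: Amt, Gldc and Gcsh of the glycine cleavage system, Shmt1 and Mthfd1 of the cytosolic folate pathway, and Nicn1, the chromosomal neighbour of Amt. They were selected on differences between the genotypes that were already known from these libraries. Their values in that comparison are therefore given as a description, without a test. The study compared retinae at embryonic day 14.5 from 3 control libraries (Ronin flox/flox) and 3 conditional knockout (CKO) libraries, which were Ronin flox/flox and also carried 1 copy (+/tg) of a Cre::GFP transgene. All mice shared the floxed Ronin alleles and a mixed background of C57/B6, SJL/B6, 129/Sv and FVB, and no agent was given. The controls carried no Cre transgene, so an effect of the transgene itself cannot be told apart from loss of Ronin. The labels describe the knockout as specific to retinal progenitor cells. Which cells of the dissected tissue had lost Ronin was not measured.

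The glycine cleavage system is a mitochondrial complex that splits glycine into carbon dioxide and ammonia and passes the remaining carbon to tetrahydrofolate. Its P-protein (Gldc) decarboxylates glycine, the lipoate-bearing H-protein (Gcsh) carries the intermediate, the T-protein (Amt) releases ammonia and loads the folate carrier, and the L-protein (Dld) reoxidises the lipoate. Serine hydroxymethyltransferases interconvert serine and glycine with the same folate carrier, in the cytosol (Shmt1) and in mitochondria (Shmt2), and Mthfd1 interconverts the folate forms used for purine and thymidylate synthesis. In embryos this carbon supply serves dividing neural cells. Nicn1 encodes a subunit of the tubulin polyglutamylase complex and has no known part in folate metabolism.

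The libraries held between 23721052 and 28504391 counted reads, with a read in 17108 to 17477 genes. Thap11 stood between 68.3 and 82.0 CPM (counts per 1000000 reads of the scaled library) in the controls and between 6.38 and 11.2 CPM in CKO retinae. Pearson correlations of log2 CPM between libraries ranged from 0.954 to 0.992, and control replicate 2 stood furthest from the rest. The labels do not say whether replicates came from separate animals, so each p-value reflects only how far these libraries scatter, which may be technical. Summed over 12 retinal progenitor markers, the level was 9107 to 9737 CPM in control retinae against 8775 to 9393 CPM in CKO retinae, and in these bulk samples fewer cells of a type and less RNA per cell cannot be told apart.

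The promoters of the 6 genes were searched for the letters of a site known for Ronin. Genes were chosen on genotype differences, and the letters were more frequent among genes called in that comparison, so the count among the 6 is a description that is not independent of the choice. Ronin is known to bind, with its partner HCF-1, a site that contains ACTACA and, after 2 further bases, TCCCAG. The same letters form part of the site known for the zinc finger factor ZNF143, so a match does not tell these factors apart. Promoter windows were taken from RefSeq (GRCm38.p6) and reached from 250 bases before to 50 bases after each start. Both strands were searched, with no mismatch allowed. All 6 genes had a window, and the letters were found in those of Amt and Nicn1 and not in those of Gldc, Gcsh, Shmt1 and Mthfd1. Of all 32851 windows, 339 (1.03%) held them. Allowing 1 mismatch raised that to 731 windows (2.23%) and gave the same 2 of the 6 genes. Among 65 other genes of the pathway with a window, 1 held the letters without a mismatch, Shmt2, and 3 did with 1 mismatch allowed, Shmt2, Atic and Mtr. Mtr, methionine synthase, is named only for this count. The stretches around the 3 matches are shown on the strand of each gene, 5′ to 3′, with the matched 14 bases in capitals. They show the matched letters and that in Nicn1 these are read on the opposite strand. The start itself lies downstream of each stretch. They come from chr9:108296832-108296893 on the plus strand for Amt, chr9:108290404-108290442 on the plus strand for Nicn1 and chr10:127522469-127522530 on the minus strand for Shmt2.
Amt: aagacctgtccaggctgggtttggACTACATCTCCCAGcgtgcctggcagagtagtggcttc
Nicn1: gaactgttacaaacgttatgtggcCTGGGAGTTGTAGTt
Shmt2: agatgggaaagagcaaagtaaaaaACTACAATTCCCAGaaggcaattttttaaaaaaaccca

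Counted from the RefSeq start, the match covered bases -49 to -36 in Amt, -15 to -2 in Nicn1 and -62 to -49 in Shmt2. GENCODE places the outermost start of Amt 3 bases upstream of its match and that of Nicn1 inside its match, so the distance depends on the annotation. A match is a description of these letters and not a measurement of binding.

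Amt, the T-protein gene, was the member with the largest log2 fold change. Its level was 49.6, 93.8 and 45.7 CPM in control replicates 1, 2 and 3 and 20.4, 19.2 and 21.0 CPM in CKO replicates 1, 2 and 3. All CKO libraries lay below all controls, and control replicate 2 was the highest library. The means were 63.0 ± 26.7 and 20.2 ± 0.91 CPM (SD, n = 3 each), or, as log2 fold change, -1.64 ± 0.28 (CKO minus control, SE), which leaves 32.0% of the control level. Without control replicate 2 the log2 fold change was -1.23. That library also held the highest summed level of periocular mesenchyme markers, 185 CPM against 52.4 to 76.6 CPM in the other 5, and the part of that tissue in the Amt value was not tested.

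Nicn1 was the steadiest of the 6 genes among the controls. It stood at 78.7, 72.7 and 74.1 CPM in control retinae against 43.1, 43.2 and 45.5 CPM in CKO retinae. The groups did not overlap, and control replicate 2, the highest for Amt, was the lowest control for Nicn1. The log2 fold change was -0.77 ± 0.12 (SE), or 58.5% of the control level. Amt and Nicn1 were 2 of 6 members among the genes called lower by edgeR's quasi-likelihood test (adjusted p under 0.05), against 0.705% of all tested genes, and 0 of 6 were among those called higher, against 0.192%. Because this comparison chose the genes, nothing is read from these counts. The count of lower calls was 0 of 6 without control replicate 1, control replicate 3 or any 1 of the CKO libraries. It was 1 with limma-voom (Nicn1), with library sizes as the only scaling (Amt) and with the replicate number as a block (Amt).

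Gldc and Gcsh, the partners of Amt in the complex, had groups that overlapped. Gldc stood at 514, 544 and 451 CPM in control retinae against 466, 434 and 422 CPM in CKO retinae, with 1 CKO library above the lowest control. Its log2 fold change was -0.19 ± 0.13 (SE). Gcsh stood at 56.7, 49.9 and 32.7 CPM in control retinae against 47.6, 39.0 and 39.4 CPM in CKO retinae, so that the CKO values lay inside the control range. Its log2 fold change of -0.14 ± 0.22 (SE) turned to 0.02 without control replicate 1. For each Gldc read there were 0.0965, 0.172 and 0.101 Amt reads in the controls and 0.0437, 0.0442 and 0.0497 in the CKO, with no overlap. Gcsh reads per Gldc read lay between 0.0725 and 0.110 in the controls and between 0.0899 and 0.102 in the CKO, which overlapped. Amt, Gldc and Gcsh were selected on this contrast, so both ratios are descriptions. The separation of the Amt ratio follows from the Amt levels above and adds no further evidence.

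The cytosolic enzymes lay on the other side. Shmt1 stood at 47.2, 48.2 and 39.4 CPM in control retinae against 68.4, 69.8 and 70.2 CPM in CKO retinae, which is a log2 fold change of 0.63 ± 0.14 (SE). The CKO libraries differed from each other by less than the controls did and were all higher. Mthfd1 stood at 82.6, 98.0 and 84.0 CPM in control retinae against 102, 106 and 109 CPM in CKO retinae, which is a log2 fold change of 0.26 ± 0.13 (SE), with a narrow gap above control replicate 2. Neither Shmt1 nor Mthfd1 was among the genes called by edgeR, while DESeq2's Wald test, and edgeR without control replicate 2, also called Shmt1 higher. In all, 2 of 6 members had every CKO library below every control, against 6.91% of tested genes, and 2 of 6 had every CKO library above every control, against 5.74%. GENCODE places Smcr8 on the other strand, overlapping Shmt1, and the strandedness of the counting is not given. Smcr8 stood at 64.4 ± 10.4 CPM in control retinae against 73.0 ± 4.03 CPM in CKO retinae (SD, n = 3 each). An antisense gene, Gm34868, likewise overlaps Mthfd1, and reads of the strands cannot be told apart.

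**Figure D1:**
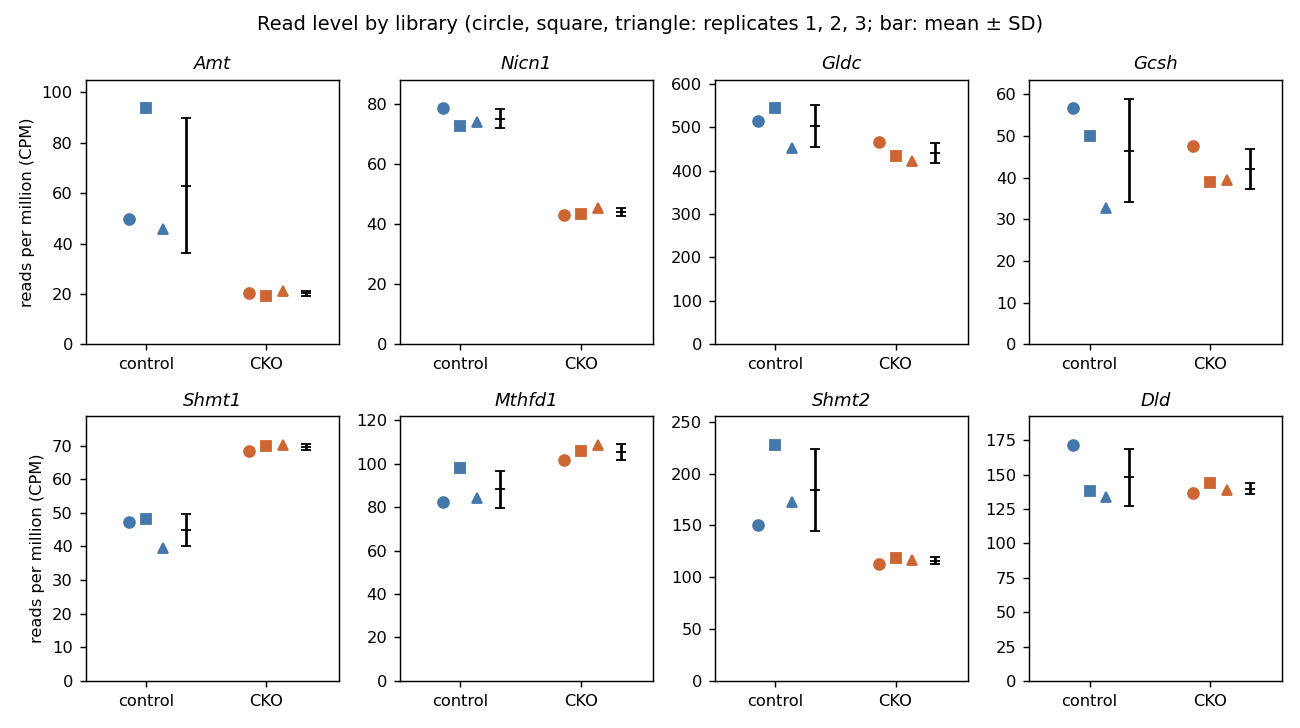
Level of the 6 genes and of Shmt2 and Dld in each library, in CPM (y axis from 0), for control (blue) and CKO (orange). Circles, squares and triangles are replicates 1, 2 and 3, and the black bar is the mean ± SD. CKO libraries lie below all controls for Amt, Nicn1 and Shmt2 and above them for Shmt1 and Mthfd1, while the groups overlap for Gldc, Gcsh and Dld.

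Levels of different genes were compared per kilobase of exon (CPM per kilobase, exon length from GENCODE). In the controls Gldc was the most abundant, at 134 ± 12.6 (SD, n = 3), above every library of the other genes. Nicn1 (35.2 ± 1.47), Gcsh (32.2 ± 8.55), Amt (30.3 ± 12.8) and Mthfd1 (27.2 ± 2.63) followed, and each overlapped the next. Shmt1 was the lowest at 15.7 ± 1.68, below every library of Mthfd1. In the CKO Gldc again stood highest at 117 ± 6.06. Mthfd1 (32.5 ± 1.10) and Gcsh (29.1 ± 3.37) overlapped each other, and Shmt1 (24.3 ± 0.33), Nicn1 (20.6 ± 0.62) and Amt (9.70 ± 0.44) followed without overlap. On this scale Shmt1 stood last in the controls and in the fourth place in the CKO, and Amt the reverse.

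Amt lies directly downstream of Nicn1 on the same strand, with 0 annotated genes between them in RefSeq and no overlap of the pair in GENCODE. For each Nicn1 read there were 0.630, 1.29 and 0.617 Amt reads in the controls and 0.473, 0.444 and 0.461 in the CKO. The ratio was thus lower in every CKO library, but the size of the gap depended on control replicate 2. Whether the fold changes of the pair differ was not tested. Without that library the log2 fold changes were -1.23 for Amt and -0.79 for Nicn1. Both genes were selected on this contrast, so the ratio is a description. The 3 nearest tested genes on each side were examined next. None of these 6 was called by edgeR, DESeq2 or limma-voom, none had an unadjusted edgeR p under 0.05, and none of their windows held the motif letters. Their median log2 fold change was -0.10, beside -0.03 over all tested genes. Dag1, the dystroglycan gene next to Nicn1, stood at 252, 161 and 233 CPM in control retinae against 220, 192 and 196 CPM in CKO retinae (log2 fold change -0.09 ± 0.19, edgeR adjusted p = 0.962). Tcta, next to Amt, stood at 25.2, 19.9 and 23.6 CPM in control retinae against 26.0, 25.7 and 25.9 CPM in CKO retinae (0.17 ± 0.15, edgeR adjusted p = 0.940). Further out, Bsn, a presynaptic scaffold gene, differed by -0.52 ± 0.25 on the log2 scale (edgeR adjusted p = 0.835), Apeh, a peptidase gene, -0.37 ± 0.28, and Rhoa, a small GTPase gene, -0.11 ± 0.15. Gpx1, a glutathione peroxidase gene, had means of 77.8 ± 28.0 and 77.6 ± 8.78 CPM (SD, n = 3 each). That of Apeh turned to 0.08 without control replicate 2.

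**Figure D2:**
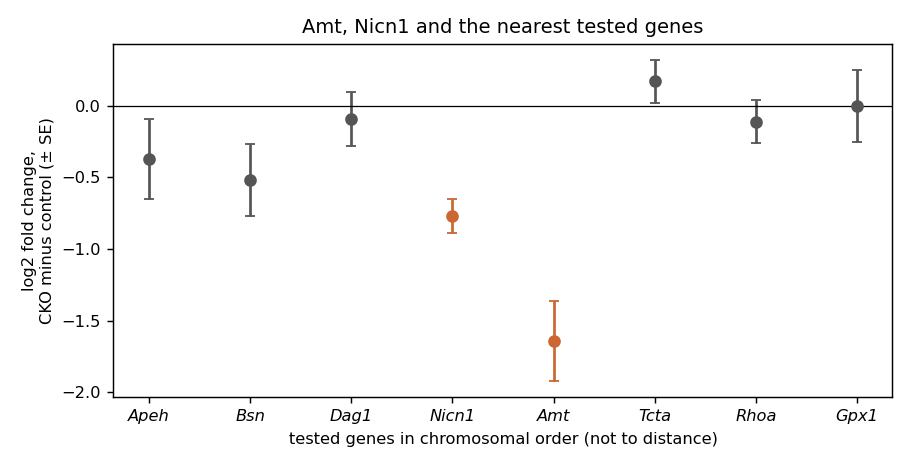
Log2 fold change (CKO minus control, y axis) with its SE for Nicn1 and Amt (orange) and the 3 nearest tested genes on each side (grey), in chromosomal order and not to distance. Nicn1 at -0.77 and Amt at -1.64 are the lowest points, and the 6 neighbours lie between -0.52 and 0.17.

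Other genes that make, carry or use the same carbon were taken from 10 lists that hold 78 genes outside the 6. Of these, 71 were tested, and 0 were called higher and 0 lower by edgeR, by DESeq2 or by limma-voom. At an unadjusted edgeR p under 0.05 there were 3 higher (Atic, Impdh1 and Adssl1, the last named after its values were seen) and 1 lower (Shmt2). Over all 14609 tested genes, 325 were higher and 637 lower at that threshold, so nothing is read from these counts. The median log2 fold change of the 71 was 0.09, beside -0.03 over all tested genes. Of the 71, 46 were positive, against 6569 of the 14609. Without control replicate 1 the median of the 71 was 0.19. The 7 untested genes had between 0 and 50 reads over all libraries, among them the liver-type genes Mat1a and Bhmt with 0 reads.

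In the mitochondrion, Shmt2 supplies glycine and one-carbon units from serine. It stood at 151, 228 and 173 CPM in control retinae against 112, 119 and 117 CPM in CKO retinae. The groups did not overlap, but the log2 fold change of -0.66 ± 0.17 (SE) did not pass the edgeR test (adjusted p = 0.255), with adjusted p values of 0.0576 to 0.907 over its alternatives. Ndufa4l2, which overlaps Shmt2 on the other strand, stood at 40.2, 80.7 and 55.7 CPM in control retinae against 33.3, 34.2 and 33.8 CPM in CKO retinae (edgeR adjusted p = 0.408). Its part in the Shmt2 count was not tested. Mthfd2, the mitochondrial dehydrogenase and cyclohydrolase that acts after Shmt2, was at 39.5 ± 2.32 and 48.0 ± 2.33 CPM (SD, n = 3 each, log2 fold change 0.28 ± 0.13, edgeR adjusted p = 0.803). None of the 7 mitochondrial folate genes was called.

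Reads of Shmt2 were also set against those of its cytosolic counterpart. For each Shmt2 read there were 0.313, 0.211 and 0.228 Shmt1 reads in the controls and 0.609, 0.586 and 0.602 in the CKO. The lowest CKO ratio was above the highest control ratio. That separation follows from the levels above, as every CKO library was higher for Shmt1 and lower for Shmt2 than every control. It adds no further evidence. Shmt1 was among the genes selected on this contrast, so the ratio is a description.

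The remaining enzymes of folate and cofactor supply showed smaller differences. Dld, the L-protein gene that also serves pyruvate dehydrogenase, stood at 172, 138 and 134 CPM in control retinae against 137, 144 and 139 CPM in CKO retinae (log2 fold change -0.08 ± 0.14, edgeR adjusted p = 0.957). Of 12 genes that supply lipoate and its iron-sulfur cofactors 0 were called, with 6 positive and 6 negative log2 fold changes and a median of 0.03. The largest gaps by p were those of Mecr, a reductase of mitochondrial fatty acid synthesis, at 20.1 ± 3.65 and 26.5 ± 2.18 CPM (edgeR adjusted p = 0.770), and Nfu1, an iron-sulfur carrier, at 9.84 ± 2.75 and 13.7 ± 0.73 CPM (edgeR adjusted p = 0.834). Glrx5, a mitochondrial glutaredoxin of iron-sulfur transfer, stood at 70.2 ± 26.2 and 54.4 ± 5.71 CPM (SD, n = 3 each).

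Of the 5 tested cytosolic folate genes besides Shmt1 and Mthfd1, 0 were called (median -0.07). Tyms, thymidylate synthase, stood at 42.7 ± 6.72 and 39.1 ± 2.20 CPM (SD, n = 3 each), and Aldh1l1, which removes formyl groups from folate, at 7.11 ± 3.71 and 4.68 ± 0.40 CPM. Of 6 genes for folate uptake and retention 0 were called (median 0.10). Slc19a1, the reduced folate carrier, was at 22.9 ± 2.74 and 25.2 ± 0.43 CPM, and Fpgs, which traps folate in the cell by adding glutamates, at 25.0 ± 5.57 and 28.9 ± 0.85 CPM.

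Serine and glycine supply gave no call either. Of 8 genes for serine synthesis and transport 7 had positive log2 fold changes (median 0.16). Psat1, the serine-pathway aminotransferase, was at 140 ± 25.6 and 140 ± 9.83 CPM (SD, n = 3 each), Sfxn3, a relative of the mitochondrial serine transporter, at 76.7 ± 7.73 and 92.8 ± 6.75 CPM, and Slc1a5, a neutral amino acid transporter, at 29.3 ± 3.82 and 37.9 ± 6.86 CPM. All 8 tested genes for glycine transport and use were positive (median 0.17), with 0 called. Gclc, which starts glutathione synthesis, was at 63.6 ± 6.42 and 68.7 ± 0.77 CPM, and Gamt, of creatine synthesis, at 15.2 ± 4.45 and 19.4 ± 2.29 CPM. Gss, glutathione synthetase, stood at 13.3, 14.7 and 12.7 CPM in control retinae against 29.01, 12.5 and 13.3 CPM in CKO retinae. Only CKO replicate 1 was high for Gss, and without it the log2 fold change went from 0.43 to -0.07. CKO replicate 1 was also the library with the highest summed lens markers, given further on, whose part in this value was not tested.

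Users of the one-carbon units were followed last. Of 11 purine synthesis genes 0 were called (median 0.11). Atic, which adds the second formyl carbon to the purine ring, stood at 130, 125 and 118 CPM in control retinae against 159, 161 and 163 CPM in CKO retinae, without overlap (log2 fold change 0.37 ± 0.12, edgeR adjusted p = 0.452). Impdh1, of guanine nucleotide synthesis, stood at 77.7 ± 5.95 and 101 ± 6.42 CPM (SD, n = 3 each, edgeR adjusted p = 0.527). Paics, a bifunctional enzyme of purine ring assembly, was at 343, 171 and 245 CPM in control retinae against 259, 238 and 250 CPM in CKO retinae, so that the CKO values lay inside the control range. Of 9 tested methionine cycle genes 0 were called (median 0.23). Cbs, which diverts homocysteine to cystathionine, stood between 1.71 and 2.40 CPM in control retinae and between 1.98 and 3.22 CPM in CKO retinae, Mtrr, methionine synthase reductase, at 23.9 ± 3.48 and 28.5 ± 1.42 CPM, and Ahcyl1, a relative of adenosylhomocysteinase, at 283 ± 24.7 and 305 ± 6.14 CPM. Of 4 tested genes of choline and sarcosine breakdown 0 were called (median -0.13). Sardh, which oxidises sarcosine to glycine, stood at 2.87, 5.19 and 2.86 CPM in control retinae and 3.22, 1.34 and 1.68 CPM in CKO retinae (edgeR adjusted p = 0.868), Pipox, the peroxisomal sarcosine oxidase, at 12.0 ± 2.92 and 9.90 ± 1.10 CPM, and Aldh7a1, of betaine formation, at 84.5 ± 9.39 and 85.5 ± 4.23 CPM.

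**Figure D3:**
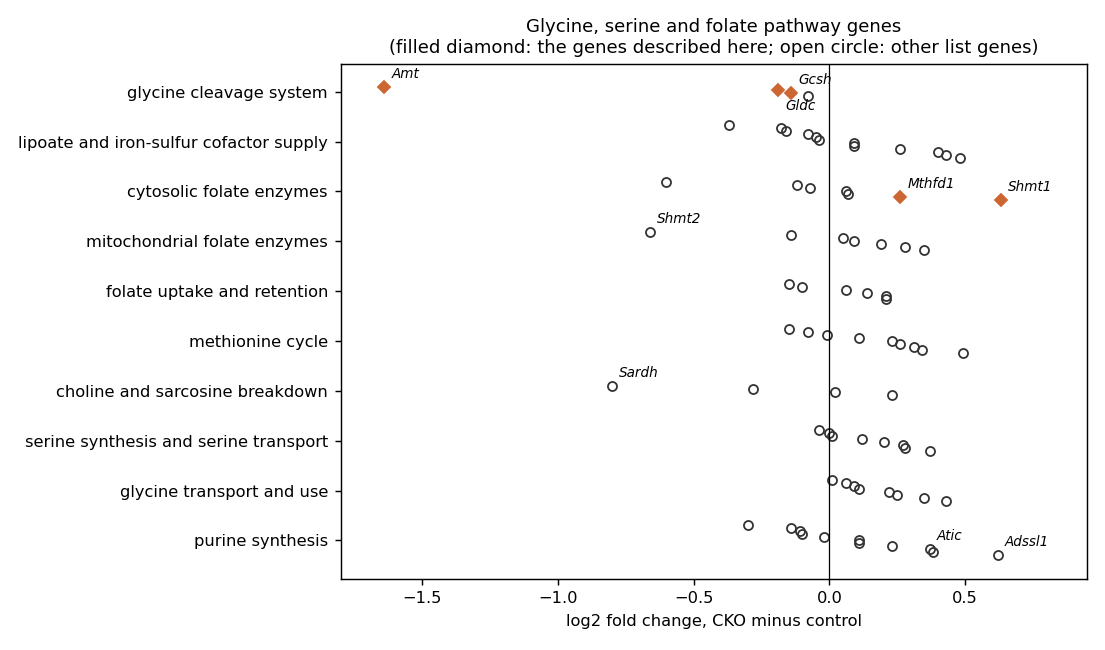
Log2 fold change (CKO minus control, x axis) of each tested gene of the 10 pathway lists, 1 list per row. Filled diamonds are the members Amt, Gldc, Gcsh, Shmt1 and Mthfd1, and open circles the 71 other genes, which lie between -0.80 (Sardh) and 0.62 (Adssl1), whereas Amt lies at -1.64.

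The motif letters were then set against expression over all tested genes. Of 271 tested genes whose window held them, 40 (14.8%) were called lower by edgeR and 3 higher, and the median log2 fold change was -0.27. Of all 10704 tested genes with a window, 83 (0.775%) were called lower, with a median of -0.03. Seen from the calls, 48.2% of the 83 genes called lower held the letters, against 2.53% of tested genes with a window, and 85.5% did with 1 mismatch allowed, against 5.21%. Of 19 genes called higher with a window, 3 (15.8%) held the letters without a mismatch and 11 (57.9%) with 1 mismatch allowed, so the share was above that of tested genes in both directions. Amt ranked 23, Nicn1 73 and Shmt2 79 from the lowest of the 271 log2 fold changes. Amt and Nicn1 were selected on this contrast. Of the 271, 198 (73.1%) were negative, against 54.5% of tested genes with a window. These counts are descriptions, and genes that share the letters are not replicates of each other.

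**Figure D4:**
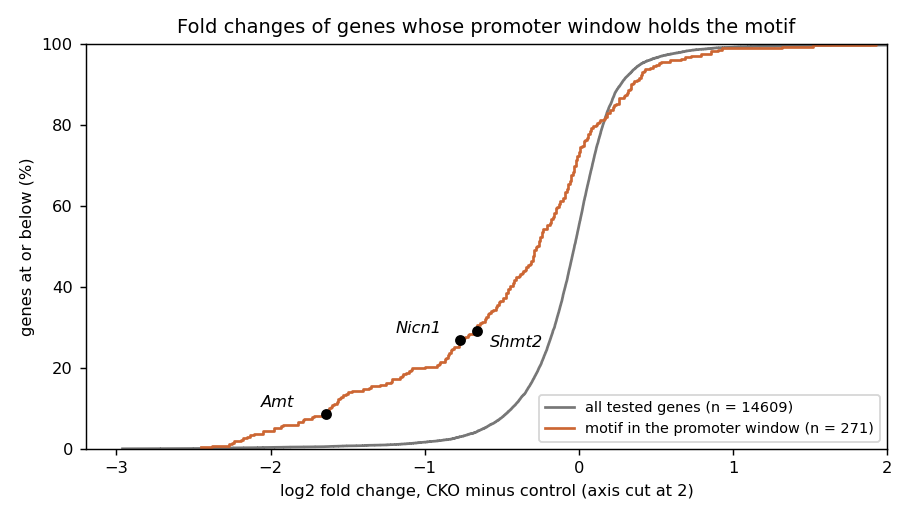
Cumulative share of genes (y axis, percent) at or below each log2 fold change (CKO minus control, x axis, cut at 2) for all 14609 tested genes (grey) and the 271 whose promoter window holds the motif letters (orange). Black points mark Amt at -1.64, Nicn1 at -0.77 and Shmt2 at -0.66, and the orange line lies to the left of the grey one over most of the range.

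Genes with the most similar pattern were sought by the Pearson correlation of log2 CPM over the 6 libraries, control and CKO together. For Amt these were Rasip1 (r = 0.998) and Zfp940 (0.996), and for Nicn1 Pappa2 (0.997) and Map2k6 (0.994). Gldc was closest to Efna4 (0.992) and Chmp4b (0.990), and Gcsh to Tmem53 (0.997) and Tubb4b (0.993). Shmt1 was closest to Ccdc28a (0.997) and Zfp473 (0.994), and Mthfd1 to Atp5sl (0.993) and Fuk (0.992). Of the 10 of these genes with a window, Zfp940 and Chmp4b held the motif letters, against 2.53% of tested genes with a window. These genes were picked for their likeness to the members, so nothing is read from this count. Between members, r was 0.90 for Amt with Nicn1, 0.85 for Amt with Gldc and 0.89 for Shmt1 with Mthfd1. It was -0.95 for Nicn1 with Shmt1 and -0.86 for Nicn1 with Mthfd1. Because the members were selected on the genotype difference, which enters each r, these values are a description. Among the controls alone, replicate 2 was the highest for Amt and the lowest for Nicn1.

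Markers of other tissues were set beside these values. The summed level of 14 lens markers was 11.8 to 18.1 CPM in control retinae against 8767, 64.0 and 597 CPM in CKO replicates 1, 2 and 3, led by Cryaa, and 0 of the 14 were at 0 reads in either group. Over the same 3 libraries Amt varied between 19.2 and 21.0 CPM, Nicn1 between 43.1 and 45.5 CPM, Shmt1 between 68.4 and 70.2 CPM and Mthfd1 between 102 and 109 CPM. Gldc lay between 422 and 466 CPM and Gcsh between 39.0 and 47.6 CPM. In CKO replicate 1, the library with the highest lens level, Gldc and Gcsh were at their highest among the CKO libraries. Nicn1, Shmt1 and Mthfd1 were at their lowest there, and Amt lay between the other CKO libraries. Summed over 12 S-phase genes, led by Mcm6, the level was 2361 to 2550 CPM in control retinae against 2295 to 2406 CPM in CKO retinae, which overlapped. Ganglion cell markers, led by Stmn2, summed to 2762 to 3533 and 2980 to 3074 CPM, and photoreceptor precursor markers, led by Neurod1, to 449 to 618 and 585 to 654 CPM. Ccnd1 led the progenitor list. Pigment epithelium markers, led by Trpm1, summed to 38.6 to 80.9 and 34.5 to 40.1 CPM, mesenchyme markers, led by Col6a1, to 72.2 to 185 and 52.4 to 74.8 CPM, and erythroid markers, led by Alas2, to 5.86 to 8.46 and 2.99 to 6.79 CPM. Of the 7 erythroid markers the globin genes Hba-a2 and Hbb-b1 had 0 reads in every library. Blood vessel markers, led by Kdr, were 283 to 340 CPM in control retinae against 249 to 269 CPM in CKO retinae, without overlap. Most of these sums was Kdr, at 247, 296 and 306 CPM in control retinae and 243, 232 and 237 CPM in CKO retinae. Of the 8 vessel markers 0 were called by edgeR. Among all tested genes, 6.91% had every CKO library below every control. The part of these tissues in the values of the 6 genes was not tested.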

How the data were processed

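The authors deposited 1 table of raw read counts per gene symbol covering 6 libraries. Tools named per the submitters' processing notes were HTSeq 0.5.4p3, BWA 0.7.6a-r433 and DESeq 2.13, with build mm9. Their roles and settings, and the strandedness, are not given in the sources used. In the table, 3 merge-conflict lines and 1 blank line were skipped, and 1 repeated row was kept once. In R 4.3.3, edgeR 4.0.16 filtered genes (filterByExpr, minimum count 10; 14609 kept), scaled by TMM and fitted a quasi-likelihood model with genotype only over all genes. Benjamini-Hochberg adjustment ran over all genes, with a threshold of 0.05. Each SE is the absolute log2 fold change over the root of its F statistic. The script was tested on simulated data. The members, gene lists and tests were chosen with earlier results of these data known. Named list genes were every called gene, the 2 with the smallest p and the one with the highest mean log2 CPM of each list; further named genes were the 3 nearest tested genes on each side of the Amt and Nicn1 pair, the 2 most correlated genes per member (mean log2 CPM of at least 1) and the top gene of each marker list. One gene that this rule names is not reported here. Every pair of libraries differed by more than sampling noise (lowest chi-square per degree of freedom 5.77). Motifs were searched in RefSeq windows of GRCm38.p6; mm9 coordinates were not used. Alternatives were DESeq2 1.42.0 (size factors, Wald test), limma 3.58.1 (voom), library sizes alone, 2 other filters, the replicate block and leaving out each library.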

Additional observations from a re-analysis of the deposited data

How the results depend on the processing

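Over 13 alternatives, Amt lay between -1.79 and -1.23 (log2 fold change), Nicn1 between -0.80 and -0.70, Gldc between -0.23 and -0.11, Gcsh between -0.31 and 0.02, Shmt1 between 0.58 and 0.70, and Mthfd1 between 0.21 and 0.35. The 2 values that moved by more than the replicate SD were Amt without control replicate 2 (-1.23) and Nicn1 with library sizes alone (-0.70). Over all genes, DESeq2's Wald test called 118 higher and 197 lower, against 28 and 103. Leaving out 1 library gave 6 to 72 higher (72 without control replicate 2, 6 without control replicate 3 or CKO replicate 3, 8 without CKO replicate 1) and 10 to 147 lower (33, 29 and 10 without CKO replicates 1, 2 and 3, and 27 without control replicate 3). No listed pathway gene outside the members and no neighbour was called in any of the 13, and the list median lay between 0.06 and 0.19. Scaling by library sizes alone shifted the median of all genes by 0.07.

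Signs near 0 turned for Gpx1 (0.01 with DESeq2 size factors, 0.06 with library sizes alone, 0.02 with DESeq2's test, 0.05 with limma-voom and the replicate block) and Paics (0.04 with library sizes alone, 0.03 with limma-voom and the replicate block). Leaving out 1 library turned other named genes, whose ranges were -0.02 to 0.12 for Aldh7a1, -0.57 to 0.08 for Apeh, -0.25 to 0.04 for Dag1, -0.12 to 0.04 for Dld, -0.15 to 0.33 for Gpx1, -0.07 to 0.64 for Gss, -0.22 to 0.26 for Paics, -0.05 to 0.17 for Psat1, -0.18 to 0.02 for Rhoa and -0.17 to 0.01 for Tyms. With 1 mismatch 731 windows held the motif.

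The replicate block gave 40 higher and 113 lower calls. Same-numbered libraries had correlations of deviations of 0.336, 0.107 and -0.00775, and control replicates 2 and 3 correlated best with another number, so the numbers were not taken to pair libraries.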
